A study of Mus musculus with 58 samples.

Results

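Insulin and insulin-like growth factor signalling was followed through 10 genes of the mouse prefrontal cortex. They were the ligand Igf1, the receptors Igf1r and Insr, the receptor substrates Irs1 and Irs2, the transcription factors Foxo1 and Foxo3, and the response genes Depp1, Pdk4 and Ddit4. The 10 were picked by symbol from a table of 18088 genes, and all 10 had a mean normalised count of at least 10 and so were among the 16669 genes tested. Depp1 and Igf1r were already known from the comparison of WT fluoxetine with WT vehicle when the list was drawn up. The members' differences in that comparison are therefore given as a description with no test, and Depp1 and Igf1r carry no p in any comparison that uses WT fluoxetine or WT vehicle libraries. Whether results of the HT groups also entered the choice is not known.

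The tissue came from C57BL/6J mice labelled heterozygous for Kmt5b, which encodes a methyltransferase of histone H4 (HT), or wild-type (WT). Every mouse took in fluoxetine, a serotonin reuptake inhibitor, lithium, a mood stabiliser, or vehicle with its mother's milk for 3 weeks, from postnatal day 3 to day 24, and tissue was collected on day 25. There were 10 libraries each of HT fluoxetine, HT lithium, HT vehicle, WT fluoxetine and WT vehicle and 8 of WT lithium, with females and males in equal numbers. The labels give no dose and no litter and do not say whether a library is 1 animal. Pups of 1 dam share her treatment, so litter and treatment cannot be told apart, and p-values measure the spread between these libraries.

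In this pathway IGF1 or insulin binds a tyrosine kinase receptor, the receptor phosphorylates IRS docking proteins, and PI3K and AKT carry the signal on. AKT phosphorylates FOXO transcription factors and keeps them out of the nucleus, so that low insulin or IGF input raises FOXO target genes. In the postnatal brain IGF1 is known for its part in neuronal growth, myelination and synapse formation.

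Promoter sequences of 9 of the 10 members were found in the RefSeq promoter table (build GRCm38.p6). Insr was not in it. Each sequence covers 250 bases before and 50 bases after the start used there, from which distances below are counted. That start can differ from the gene positions given below, and the Irs2 sequence lies wholly outside them. The 9 sequences were searched on both strands for the forkhead motifs GTAAACA and GTAAATA and for CAAAACA, the core of the insulin response sequence that FOXO factors bind. 3 of the 9 promoters held at least 1 of these motifs, which 12.3% of the 32851 promoters in the table hold. The 3 are shown, 5′ to 3′ on the gene's own strand, because Depp1 and Irs2 are among the members that differ between groups and Irs1 is the close relative of Irs2. They lie at chr6:116650434-116650733 on the plus strand for Depp1, and on the minus strand at chr1:82291390-82291689 for Irs1 and chr8:11008880-11009179 for Irs2. Capitals mark the motifs together with the E-box CACGTG, which was added after the sequences were seen.
Depp1: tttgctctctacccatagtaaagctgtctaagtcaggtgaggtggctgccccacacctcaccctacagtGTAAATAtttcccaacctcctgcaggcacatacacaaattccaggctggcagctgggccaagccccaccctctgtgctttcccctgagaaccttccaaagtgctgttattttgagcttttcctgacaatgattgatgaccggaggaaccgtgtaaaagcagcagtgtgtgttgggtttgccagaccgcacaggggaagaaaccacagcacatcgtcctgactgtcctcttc
Irs1: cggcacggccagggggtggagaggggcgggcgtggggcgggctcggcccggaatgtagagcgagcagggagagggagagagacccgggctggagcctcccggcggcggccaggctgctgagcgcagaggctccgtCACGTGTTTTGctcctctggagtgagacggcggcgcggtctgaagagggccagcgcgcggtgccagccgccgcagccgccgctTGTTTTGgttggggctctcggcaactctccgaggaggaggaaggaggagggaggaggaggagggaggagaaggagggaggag
Irs2: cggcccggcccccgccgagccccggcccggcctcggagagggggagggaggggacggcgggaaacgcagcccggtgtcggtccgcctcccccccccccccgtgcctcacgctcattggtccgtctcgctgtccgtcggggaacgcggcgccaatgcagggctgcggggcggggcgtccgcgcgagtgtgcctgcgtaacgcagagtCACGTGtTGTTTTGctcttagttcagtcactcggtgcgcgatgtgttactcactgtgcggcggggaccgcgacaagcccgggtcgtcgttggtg

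The Depp1 promoter held GTAAATA 181 bases before the start, a motif found in 3.04% of all promoters. Irs1 and Irs2 both held TGTTTTG, which is CAAAACA read on the other strand and occurs in 6.28% of promoters. In Irs2 it lay 37 bases before the start, beside a CACGTG at 44 bases, and in Irs1 at 111 and at 32 bases, the farther copy overlapping a CACGTG at 115 bases. CACGTG occurs in 7.15% and GTAAACA in 3.65% of all promoters. The Depp1 promoter was 51.7% G and C, against 71.3% in Irs1 and 72.0% in Irs2, with a median of 52.7% over the table.

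Read totals, worked back from the normalised values, lay between 23.5 and 38.6 M per library (median 27.6 M). Kmt5b stood at 1734 ± 98.3 normalised counts in libraries labelled HT (SD, n = 30) and 1654 ± 137 in libraries labelled WT (SD, n = 28), so Kmt5b RNA was not lower where the label says HT. HT and WT below stand for libraries so labelled. The summed level of 9 cortical excitatory neuron markers lay between 45932 and 74075 normalised counts, and no marker had a total of 0 over all libraries. The summed level of 4 olfactory bulb markers (Doc2g, Cdhr1, Tbx21, Eomes) ranged from 95.8 to 10513 over the libraries. In 3 libraries the level of a marker list lay over 5 median absolute deviations from the median: striatal markers were high in HT fluoxetine female 2 and WT vehicle female 5, and excitatory markers were low in HT fluoxetine male 4. In bulk tissue, fewer cells of a type and less RNA per cell cannot be told apart.

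Values are normalised counts, that is, a library's reads of a gene divided by the library's size factor, and differences are of log2(value + 1). Per kilobase of exon, Ddit4 had the highest level of the 10 genes, 642 ± 115 normalised counts (SD, n = 58), followed by Foxo3 at 346 ± 18.7 and Irs2 at 248 ± 46.0. Both receptors came next and did not differ beyond their spread, with Insr at 123 ± 10.1 and Igf1r at 114 ± 15.1. Irs1 (67.8 ± 7.97), Foxo1 (67.5 ± 9.51), Pdk4 (60.0 ± 9.69), Igf1 (49.0 ± 14.4) and Depp1 (32.1 ± 18.7) closed the order, each within 1 SD of its neighbour. On this scale Foxo3 varied least over all libraries relative to its mean, with a coefficient of variation of 5.41%, and Depp1 most, with 58.1%.

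Depp1 was lower under either drug than under vehicle, in both genotypes. Its log2 difference was the largest of the 10 genes in each of these 4 comparisons. Both WT comparisons use the WT vehicle libraries from which Depp1 was known, so nothing is read from its rank there. Under fluoxetine Ddit4 was also lower and Igf1r higher. In HT fluoxetine against HT vehicle, 5 of the 10 members passed an adjusted p under 0.05 by limma, which 12.8% of all genes did. Igf1r rose, as 6.84% of all genes did, and Depp1, Ddit4, Irs2 and Foxo3 fell, as 5.96% of all genes did. On the 54 libraries whose whole reads were recovered, edgeR called 3 of the members and DESeq2 4, and limma fewer than either. In WT fluoxetine against WT vehicle, the count was also 5 (Igf1r and Insr higher, Depp1, Ddit4 and Pdk4 lower), where 7.39% of all genes passed, 3.98% higher and 3.41% lower, and nothing is read from it. In HT lithium against HT vehicle 1 member passed, Depp1, against 14.1% of all genes, 7.46% higher and 6.61% lower, so the members' share was near that of all genes. In WT lithium against WT vehicle the count was again Depp1, 1 of 10 against 3.34% of all genes (1.95% higher, 1.39% lower), and nothing is read from it. The fluoxetine and the lithium comparison of a genotype share its vehicle libraries.

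**Figure D1:**
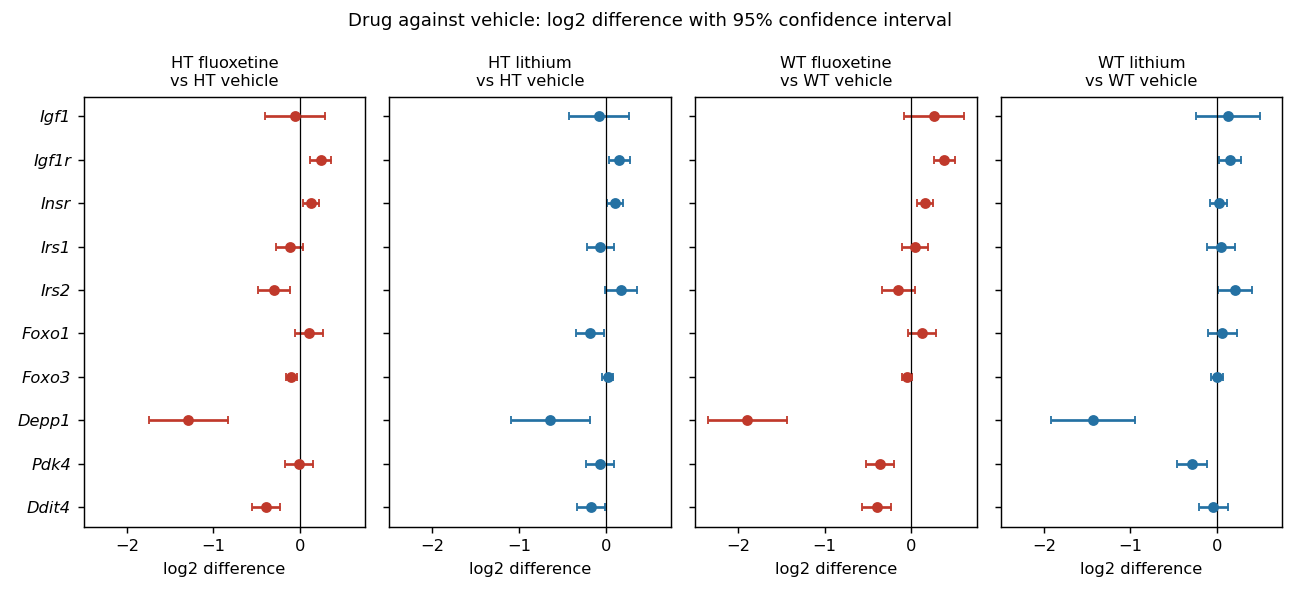
Log2 difference of each member between drug and vehicle (horizontal axis, log2 units) in HT fluoxetine, HT lithium, WT fluoxetine and WT lithium, with points for the estimate and bars for its 95% confidence interval. Depp1 lies farthest left in all 4 panels, from -0.64 in HT lithium to -1.89 in WT fluoxetine, the comparison from which it was known. The intervals of all members in WT fluoxetine, and of Depp1 and Igf1r in WT lithium, are a description and not a test.

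Igf1 (ENSMUSG00000020053, chromosome 10, 87858265 to 87937042), the growth factor that microglia, neurons and other brain cells secrete, did not pass the test in any comparison. Its normalised count ran from 298 over a median of 441 to 921 in HT fluoxetine, from 297 over 491 to 653 in HT lithium and from 364 over 473 to 683 in HT vehicle. In WT fluoxetine it ran from 338 over 480.4 to 954, in WT lithium from 371 over 450.3 to 795 and in WT vehicle from 340.5 over 394 to 592. All 6 groups overlapped widely, and the coefficient of variation over the 58 libraries, 29.4%, was the second highest of the members. The log2 difference was -0.06 in HT fluoxetine against HT vehicle (SE 0.173, 95% confidence interval -0.41 to 0.29, adjusted p = 0.859) and -0.07 in HT lithium against HT vehicle (adjusted p = 0.812). In WT mice it was 0.26 for fluoxetine, as a description, and 0.13 for lithium (SE 0.184, adjusted p = 0.805).

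Igf1 rose with the olfactory bulb markers of a library. With their level, a mean log2 value over the 4 markers, as a term in the fit, Igf1 gained 0.18 on the log2 scale per unit of level (SE 0.0148, limma adjusted p = 1.41e-14), a term that passed for 41.9% of all genes. Without the 2 libraries farthest from the median level it gained 0.20 (adjusted p = 1.65e-14). Irs1 and Foxo1 gained 0.07 each (adjusted p = 1.42e-09 and 5.42e-08) and Ddit4 0.04 (adjusted p = 0.00963), while Irs2 lost 0.05 (-0.05, adjusted p = 0.00386) and Foxo3 0.01 (-0.01, adjusted p = 0.0386). Depp1, Pdk4, Igf1r and Insr did not pass. The level averaged -0.60 ± 2.32 in HT fluoxetine, -0.32 ± 2.27 in HT lithium and 0.96 ± 0.745 in HT vehicle (SD, n = 10 each), and 0.24 ± 1.95 in WT fluoxetine, 0.47 ± 0.861 in WT lithium (n = 8) and -0.66 ± 2.24 in WT vehicle.

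**Figure D2:**
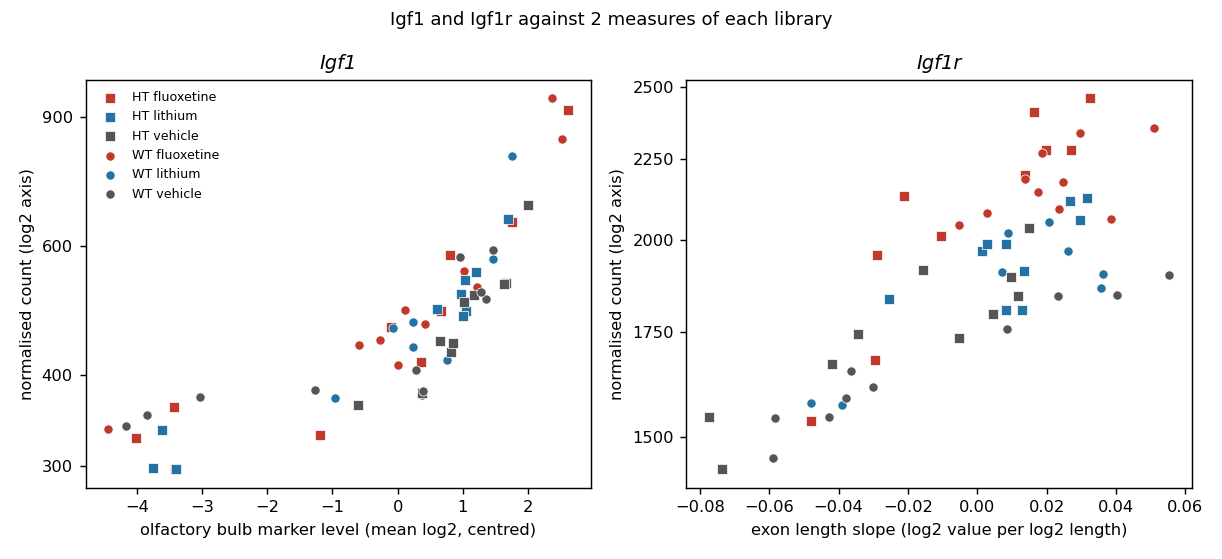
Normalised counts of Igf1 against the olfactory bulb marker level (left) and of Igf1r against the exon length slope (right), 1 point per library, with log2 vertical axes and colour and shape for the 6 groups. The 4 highest Igf1 values, 795 to 954, are in libraries with marker levels of 1.75 to 2.61, and Igf1r is lowest, at 1432, in HT vehicle female 2, whose slope is -0.0736.

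Igf1r (ENSMUSG00000005533, chromosome 7, 67952827 to 68233668), the receptor tyrosine kinase that binds IGF1, was higher under fluoxetine. Its normalised count in HT fluoxetine ran from 1537 over a median of 2166 to 2458, and in HT vehicle from 1432 over 1769 to 2034. Of the 10 HT fluoxetine libraries 6 stood above the highest HT vehicle library, and 2, females 4 and 5, stood below the vehicle median at 1537 and 1679. On the log2 scale the difference was 0.24 (SE 0.0608, adjusted p = 0.00646), a fold of 1.18. In WT fluoxetine the range was 2042 over 2160.2 to 2353 and in WT vehicle 1457 over 1634 to 1901, so these groups did not overlap. That difference, 0.38 (SE 0.0608), is the one from which the gene was known.

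Under lithium Igf1r lay in between. The HT lithium libraries ran from 1805 over 1979 to 2126, all 10 above the HT vehicle median, with a log2 difference of 0.16 (SE 0.0608) that missed the threshold (adjusted p = 0.0659). The WT lithium libraries ran from 1573 over 1905 to 2052, 6 of 8 above the WT vehicle median, and the difference was 0.15 (SE 0.0644). HT lithium against HT fluoxetine gave -0.08 (SE 0.0608, 95% confidence interval -0.21 to 0.04, adjusted p = 0.449). In WT lithium 7 of 8 libraries lay below every WT fluoxetine library, a log2 difference of -0.23 (SE 0.0644) given as a description.

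Insr (ENSMUSG00000005534, chromosome 8, 3122061 to 3279617), the insulin receptor, was higher under fluoxetine than under vehicle in both genotypes, with no test in WT mice and without passing in HT mice. It ran from 1518 over 1725 to 1937 in HT fluoxetine, from 1609 over 1699.7 to 1886 in HT lithium and from 1308 over 1611 to 1766 in HT vehicle. The log2 difference was 0.13 for HT fluoxetine against HT vehicle (SE 0.0462, adjusted p = 0.0585) and 0.11 for HT lithium against HT vehicle (SE 0.0462, adjusted p = 0.0872). In WT mice it ran from 1748 over 1823 to 1894 in WT fluoxetine, from 1404 over 1711 to 1776 in WT lithium and from 1474 over 1606 to 1808 in WT vehicle. All 10 WT fluoxetine libraries stood above the WT vehicle median (0.16, SE 0.0462), while lithium gave 0.02 (SE 0.0491, adjusted p = 0.873).

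Both receptor genes are long, with 16791 and 13746 bases of exon in Igf1r and Insr, and both rose with the exon length slope of a library, the slope over all genes of its log2 deviation on log2 exon length. Per SD of that slope Igf1r gained 0.13 (adjusted p = 3.45e-11) and Insr 0.10 (adjusted p = 4.40e-12), and the term passed for 37.5% of all genes. Irs1 and Foxo1 gained 0.08 each (adjusted p = 0.0229 and 0.0189), and the other members did not pass. Without the 2 libraries farthest from the median slope the gains of Igf1r and Insr were 0.13 and 0.10. Mean slopes were -0.0028 ± 0.0281 in HT fluoxetine, 0.011 ± 0.0168 in HT lithium and -0.0207 ± 0.0346 in HT vehicle, and 0.0215 ± 0.0163 in WT fluoxetine, 0.00596 ± 0.0324 in WT lithium and -0.0137 ± 0.0419 in WT vehicle. With the slope as a covariate the difference of Igf1r in HT fluoxetine was 0.17 (adjusted p = 0.00166), and in WT fluoxetine it was 0.23 for Igf1r and 0.05 for Insr.

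Irs2 (ENSMUSG00000038894, chromosome 8, 10984681 to 11008458), whose promoter is shown above, encodes the docking protein that links both receptors to PI3K and is itself known as a FOXO target in liver. It differed between the drugs. HT lithium libraries ran from 1542 over 1805 to 2144 normalised counts and HT fluoxetine libraries from 1077 over 1314 to 1506, so the groups did not overlap. This was a log2 difference of 0.48 (SE 0.0929, adjusted p = 0.00062), a fold of 1.39, in a comparison where 6.79% of all genes passed (3.52% higher, 3.27% lower) beside 3 of the 10 members. WT lithium libraries ran from 1377 over 1814 to 2194 and WT fluoxetine libraries from 1135 over 1344 to 1819, with all 8 lithium libraries above the fluoxetine median. There the difference was 0.36 (SE 0.0985, adjusted p = 0.0279), where 4.21% of all genes passed (2.55% higher, 1.66% lower) beside 3 of the 10 members. Those 3 include Igf1r, which was known from the WT fluoxetine libraries, so nothing is read from this count. The Irs2 difference in WT mice lost the call when any 1 of 8 libraries was left out, with differences of 0.29 to 0.34, and lowest without WT lithium female 4.

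Against vehicle Irs2 was lower under fluoxetine and higher under lithium, and 1 of the differences passed. In HT vehicle Irs2 ran from 1276 over 1601 to 1929, and all 10 HT fluoxetine libraries stood below that median (-0.30, SE 0.0929, adjusted p = 0.0291). HT lithium against HT vehicle gave 0.18 (SE 0.0929, adjusted p = 0.184). In WT vehicle Irs2 ran from 1089 over 1527 to 1971, and the difference was -0.15 for WT fluoxetine and 0.21 for WT lithium (SE 0.0985, adjusted p = 0.283). Irs2 did not pass in HT fluoxetine without the 3 libraries that stand apart (-0.27, adjusted p = 0.0697) or when any 1 of 7 libraries was left out (-0.28 to -0.26), while the difference between the drugs in HT mice passed under the 15 other settings, at 0.45 to 0.49, and without any 1 of the 58 libraries, at 0.44 to 0.50.

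Irs1 (ENSMUSG00000055980, chromosome 1, 82233101 to 82291416), the other main substrate, did not pass in any comparison. Its medians lay between 572 and 651 normalised counts in all 6 groups: 594 in HT fluoxetine, 643 in HT lithium, 651 in HT vehicle, 586 in WT fluoxetine, 612 in WT lithium and 572 in WT vehicle. The log2 difference was -0.12 in HT fluoxetine against HT vehicle (SE 0.0761, 95% confidence interval -0.27 to 0.03, adjusted p = 0.308) and -0.06 in HT lithium against HT vehicle (adjusted p = 0.643).

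**Figure D3:**
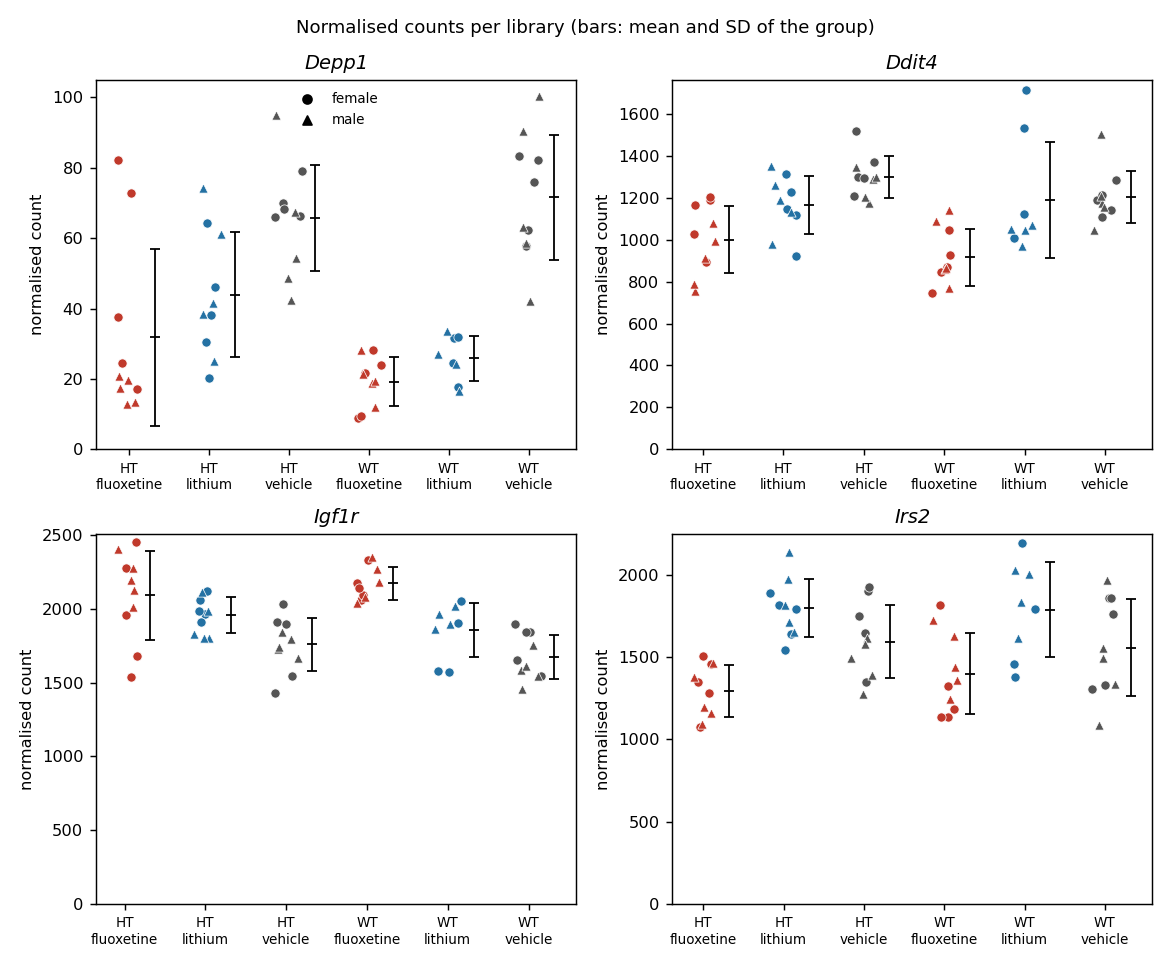
Normalised counts (vertical axes, from 0) of Depp1, Ddit4, Igf1r and Irs2 in each library of the 6 groups, with circles for females, triangles for males, and the mean with SD beside each group. In Depp1 the WT fluoxetine and WT lithium libraries reach 28.4 and 33.6 and the WT vehicle libraries start at 42.2, and HT fluoxetine females 4 and 5 stand at 72.7 and 82.2.

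Foxo3 (ENSMUSG00000048756, chromosome 10, 42181841 to 42276755), the higher of the 2 FOXO members per kilobase, was lower in HT fluoxetine than in both other HT groups. It ran from 2368 over 2435 to 2621 in HT fluoxetine, from 2575 over 2630.0 to 2976 in HT lithium and from 2466 over 2628 to 2854 in HT vehicle. All 10 HT fluoxetine libraries lay below the vehicle median, and the log2 difference was -0.10 (SE 0.031, adjusted p = 0.0278), a fold of 0.934. HT lithium stood 0.12 above HT fluoxetine (SE 0.031, adjusted p = 0.00781) and 0.03 above HT vehicle (adjusted p = 0.623). Without the 3 libraries that stand apart the difference from vehicle was -0.09 (adjusted p = 0.0682), and it lost the call without HT fluoxetine male 1, HT vehicle female 5 or HT vehicle male 5 (-0.09 each). In WT mice Foxo3 was -0.05 for fluoxetine and 0.00 for lithium against vehicle (SE 0.0329, adjusted p = 0.995).

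Foxo1 (ENSMUSG00000044167, chromosome 3, 52268336 to 52353221) went the other way between the drugs in HT mice. It ran from 456 over 558 to 594 in HT lithium, from 516 over 627 to 777 in HT fluoxetine and from 559 over 601 to 692 in HT vehicle. HT lithium lay 0.28 below HT fluoxetine (-0.28, SE 0.0805, adjusted p = 0.026), with all 10 lithium libraries below the fluoxetine median. Without the 3 libraries that stand apart this was -0.21 (adjusted p = 0.112), and it lost the call when any 1 of 7 libraries was left out (-0.26 to -0.24). Against vehicle the differences were 0.10 for HT fluoxetine (adjusted p = 0.43) and -0.18 for HT lithium (adjusted p = 0.132). WT lithium (median 575) against WT fluoxetine (median 589) gave -0.06 (SE 0.0854, adjusted p = 0.743).

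Depp1 (ENSMUSG00000048489, chromosome 6, 116650609 to 116652794), known as a FOXO target in human cells, had the largest fall of the members in HT fluoxetine. In HT fluoxetine the 5 males stood at 12.9, 19.7, 17.5, 13.6 and 20.7 normalised counts and the 5 females at 37.6, 24.5, 17.1, 72.7 and 82.2. In HT vehicle the range was 42.4 over a median of 66.9 to 94.9. Of the 10 HT fluoxetine libraries 8 lay below every HT vehicle library, while females 4 and 5 lay above the vehicle median. The difference on the log2 scale was -1.29 (SE 0.228, 95% confidence interval -1.75 to -0.83, adjusted p = 0.000254), a fold of 0.409, and it passed under every alternative that tested it. The same 2 females had the lowest Igf1r of their group, and their exon length slopes were -0.048 and -0.0294. With the slope as a covariate the difference was -1.18, and the part of the slope in their values was not tested.

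Depp1 was lower under lithium as well. HT lithium libraries ran from 20.2 over 39.96 to 74.3, with 6 of 10 below every HT vehicle library. The log2 difference of -0.64 (SE 0.228, 95% confidence interval -1.10 to -0.18) passed narrowly, at adjusted p = 0.0498, and 10 of 14 alternatives that tested it lost the call, with adjusted p up to 0.212. It also lost the call when any 1 of 38 of the 58 libraries was left out, with differences from -0.68 to -0.53. In WT mice the 8 lithium libraries ran from 16.6 over 25.8 to 33.6 and the 10 fluoxetine libraries from 9.04 over 20.5 to 28.4, all below the 10 vehicle libraries, which ran from 42.2 over 69.6 to 100.3. As a description the log2 difference was -1.43 for WT lithium (SE 0.242) and -1.89 for WT fluoxetine (SE 0.228).

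Ddit4 (ENSMUSG00000020108, chromosome 10, 59949669 to 59951834), which encodes the mTORC1 inhibitor REDD1 and answers to glucocorticoids and low oxygen, fell in HT fluoxetine. HT fluoxetine libraries ran from 755 over 1009.7 to 1201 and HT vehicle libraries from 1174 over 1296 to 1519, with 8 of 10 fluoxetine libraries below every vehicle library. The log2 difference was -0.39 (SE 0.0811, adjusted p = 0.00125), a fold of 0.762. In WT fluoxetine Ddit4 ran from 744 over 868 to 1141 and in WT vehicle from 1048 over 1182 to 1505, with a difference of -0.40 (SE 0.0811) as a description. Lithium did not pass against vehicle, with -0.16 in HT mice (SE 0.0811, adjusted p = 0.163) and -0.04 in WT mice (SE 0.086, adjusted p = 0.874). WT lithium libraries ran from 969 over 1061 to 1714 and stood 0.36 above WT fluoxetine (SE 0.086, adjusted p = 0.00935), with all 8 lithium libraries above the fluoxetine median and a value of 0.30 (adjusted p = 0.0624) without WT lithium female 4. In HT mice lithium, from 922 over 1169 to 1352, gave 0.23 against fluoxetine (SE 0.0811, adjusted p = 0.0743).

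Pdk4 (ENSMUSG00000019577, chromosome 6, 5483351 to 5496309), the kinase that shuts down pyruvate dehydrogenase and a FOXO target in muscle, is given in WT fluoxetine as a description. WT fluoxetine libraries ran from 151 over 194 to 207 and WT vehicle libraries from 206 over 238 to 321, with 9 of 10 fluoxetine libraries below every vehicle library (-0.36, SE 0.0811). WT lithium libraries ran from 158 over 193 to 277, and the difference of -0.28 (SE 0.086) missed the threshold at adjusted p = 0.0509. In HT mice Pdk4 ran from 160 over 202 to 266 under fluoxetine, from 171 over 199 to 230 under lithium and from 179 over 211 to 239 under vehicle. The HT differences were -0.01 for fluoxetine (95% confidence interval -0.18 to 0.15, adjusted p = 0.938) and -0.06 for lithium (adjusted p = 0.657). In HT fluoxetine 4 of the 5 females stood between 244 and 266 and female 3 at 160, and the 5 males stood between 162 and 209.

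Some markers of other cell types passed in HT fluoxetine against HT vehicle, where 12.8% of all genes did (6.84% higher, 5.96% lower). Beside that share, counts of 1 or 2 markers in a list are not read as a change of the cell type. Of 10 oligodendrocyte markers 5 rose against HT vehicle, with a list median of 0.41 on the log2 scale, against -0.00 over all genes. Their summed level ran from 83130 over a median of 149036 to 200006 in HT fluoxetine and from 63251 over 115265 to 137846 in HT vehicle. Of 10 microglia markers 3 rose, with sums from 11653 to 15084 in HT fluoxetine and from 10994 to 13571 in HT vehicle. Of 10 endothelial markers 2 rose, with sums from 7740 to 10379 in HT fluoxetine and from 7353 to 9676 in HT vehicle. Of 8 mural markers 2 rose, with sums from 6761 to 10106 in HT fluoxetine and from 6996 to 8765 in HT vehicle. Of 9 astrocyte markers 2 rose, with sums from 122902 to 162562 in HT fluoxetine and from 117813 to 143339 in HT vehicle. Of 9 inhibitory neuron markers 1 fell, with sums from 22011 to 32951 in HT fluoxetine and from 24525 to 30540 in HT vehicle. No marker of these lists had a total of 0 over all libraries. In WT fluoxetine the median of the oligodendrocyte list was 0.08, with sums from 83356 to 183097 in WT fluoxetine and 61398 to 205978 in WT vehicle. In WT fluoxetine against WT vehicle, where 7.39% of all genes passed, 2 endothelial, 1 microglia, 1 astrocyte and 1 excitatory neuron marker fell. The olfactory bulb list had a median of -1.55 in HT fluoxetine and -1.25 in HT lithium against HT vehicle, with no marker past the threshold by limma.

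Against vehicle 14.1% of all genes passed in HT lithium and 3.34% in WT lithium. Between the drugs 6.79% passed in HT and 4.21% in WT mice. In HT lithium against vehicle 4 of 10 endothelial, 2 of 8 mural, 1 of 6 oligodendrocyte precursor and 1 of 9 astrocyte markers fell. There 1 endothelial, 1 astrocyte and 1 inhibitory neuron marker rose. In WT lithium against WT vehicle 1 astrocyte marker rose, and 1 astrocyte and 1 excitatory neuron marker fell. In HT lithium against HT fluoxetine, where Irs2, Foxo3 and Foxo1 passed, 6 of 10 oligodendrocyte markers (list median -0.47), 3 of 10 microglia, 2 of 10 endothelial, 2 of 6 oligodendrocyte precursor, 2 of 9 astrocyte and 1 of 8 mural markers fell, and 1 inhibitory and 1 excitatory neuron marker rose. The oligodendrocyte sums there ran from 80399 to 119777 in HT lithium and from 83130 to 200006 in HT fluoxetine. In WT lithium against WT fluoxetine 2 mural, 2 inhibitory neuron and 1 astrocyte marker rose. The part of these cell types in the members' differences was not tested.

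HT mice were set against WT mice under each treatment to ask whether genotype shifts the pathway, and 0 of the 10 members passed by limma under vehicle, fluoxetine or lithium, where 0.048%, 0.612% and 0.06% of all genes did. edgeR and DESeq2 also called 0 in each. Apart from Depp1 and Igf1r, 1 member had an unadjusted p under 0.05 under vehicle (Pdk4) and 1 under fluoxetine (Foxo3, -0.07). Under vehicle the log2 difference lay between -0.21 (Pdk4, SE 0.0811, adjusted p = 0.268) and 0.15 (Foxo1, SE 0.0805, adjusted p = 0.459). As a description, Depp1 was 0.49 higher in HT under fluoxetine. That value uses the WT fluoxetine libraries from which the gene was known to be low, and nothing is read from it. Under lithium Depp1 was 0.68 higher in HT (95% confidence interval 0.19 to 1.16), without passing after adjustment. Tests of whether a drug's difference depended on genotype passed for 0 members with limma, edgeR or DESeq2, where 0.042% of all genes passed for fluoxetine and 0% for lithium. At an unadjusted p under 0.05 there was 1 member for fluoxetine (Pdk4, 0.35, SE 0.115, adjusted p = 0.246) and, apart from Depp1, 1 for lithium (Foxo1, -0.24, SE 0.117, adjusted p = 0.352).

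Between females and males 0 of 10 members passed by limma, edgeR or DESeq2, and 0 had an unadjusted p under 0.05, where 0.132% of all genes passed. The log2 difference of females minus males lay between -0.04 for Insr (SE 0.0273) and 0.09 for Ddit4 (SE 0.0478, adjusted p = 0.622) in the members other than Depp1, for which it was 0.18. Tests of whether a drug's difference depended on sex passed for 0 members by limma, where 0% of all genes passed for fluoxetine and 0.018% for lithium, with 1 at an unadjusted p under 0.05 for fluoxetine (Pdk4, 0.34, SE 0.115) and 1 for lithium (Irs2, -0.30, SE 0.135).

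Other genes of the pathway were read from lists by role, which were chosen with earlier results of these data known. Among 12 tested IGF-binding proteins and the proteins that act on them, 3 of 12 passed in HT lithium, against 14.1% of all genes, 2 of 12 in WT lithium, against 3.34%, and 1 of 12 in HT fluoxetine, against 12.8%. In HT lithium against HT vehicle Igfbp3 (0.32, adjusted p = 0.00415) and Stc1 (0.28, adjusted p = 0.0289), an inhibitor of the pappalysin proteases, rose, and Igfbp2 (-0.32, adjusted p = 0.00999) fell. In WT lithium against WT vehicle Igfbp3 (0.30, adjusted p = 0.0308) and Htra1 (0.24, adjusted p = 0.00708), a secreted serine protease, rose. Htra1 (0.18, adjusted p = 0.0166) was the 1 gene of the list that passed in HT fluoxetine. Igf2, Igf2r and Insrr, the other tested ligand and receptors, did not pass by limma in the 4 drug comparisons against vehicle.

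Of 17 tested substrates, adaptors and receptor inhibitors, 1 rose and 3 fell in HT fluoxetine, where 12.8% of all genes passed. Ptpn1, the phosphatase that removes phosphate from the insulin receptor, fell by 0.19 (-0.19, adjusted p = 0.000426), Sh2b2, an adaptor of the insulin receptor, by 0.31 (-0.31, adjusted p = 0.00832), and Irs2 was the third. Grb14, an inhibitor of the receptor kinase, rose by 0.16 (adjusted p = 0.0134). Ptpn1 rose in WT lithium against WT vehicle (0.21, adjusted p = 0.000319). Between the drugs it was higher under lithium than under fluoxetine, by 0.28 in HT mice (adjusted p = 1.94e-07) and 0.30 in WT mice (adjusted p = 3.51e-07). The neuronal adaptor Shc3 was also higher in HT lithium than in HT fluoxetine (0.43, adjusted p = 0.0368). Socs3, an inhibitor of cytokine and insulin receptors, fell in WT fluoxetine (-0.43, adjusted p = 0.0078) and was higher in WT lithium than in WT fluoxetine (0.43, adjusted p = 0.0169).

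Of 22 genes of the PI3K and AKT step, 4 rose and 3 fell in HT lithium against HT vehicle. Over all genes the share that passed was 14.1% in HT lithium and 12.8% in HT fluoxetine. Pik3r1, the main regulatory subunit of PI3K (0.18, adjusted p = 0.000602), rose, and Akt1 (-0.11, adjusted p = 0.0142) and Pik3r2, a second regulatory subunit (-0.16, adjusted p = 0.0206), fell. In HT fluoxetine 2 rose and 1 fell: Pik3cg, a catalytic subunit (0.39), and Sgk3, a kinase related to AKT (0.19), each at adjusted p = 0.00569, and Pik3r2 (-0.16, adjusted p = 0.0236). The list's median was -0.00 in HT fluoxetine and 0.05 in HT lithium.

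Of 25 mTOR genes and regulators, 6 rose and 1 fell in HT lithium and 4 rose in WT lithium. The shares of all genes that passed were 14.1% in HT lithium, 3.34% in WT lithium and 12.8% in HT fluoxetine. Castor2, an arginine sensor family member, rose in HT lithium (0.29, adjusted p = 6.48e-05) and WT lithium (0.31, adjusted p = 9.98e-05), and so did Prr5, a partner of mTORC2 (0.37, adjusted p = 0.00709, and 0.66, adjusted p = 4.34e-05). Sesn3 (0.25, adjusted p = 0.000756) and Sesn1 (0.18, adjusted p = 0.00263), sestrins that restrain mTORC1, rose in HT lithium. In HT fluoxetine Rps6kb2, an S6 kinase, rose (0.17, adjusted p = 0.00772) and Mtor itself fell (-0.13, adjusted p = 0.0458) together with Ddit4. Of the 4 FOXO factors, Foxo6, a brain-enriched one, fell in HT fluoxetine (-0.49, adjusted p = 0.0104) and in WT fluoxetine (-0.41, adjusted p = 0.0452) and was higher in HT lithium than in HT fluoxetine (0.59, adjusted p = 0.00288).

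Genes known as FOXO targets in other tissues passed in both directions, beside 12.8% of all genes in HT fluoxetine and 14.1% in HT lithium. Of 30 tested, 2 rose and 6 fell in HT fluoxetine, with a list median of 0.01 against -0.00 over all genes, and 4 rose and 4 fell in HT lithium (median 0.03). Beside Depp1 and Irs2, the genes that fell in HT fluoxetine included Gadd45a (-0.44, adjusted p = 0.00322), a DNA damage response gene, and the cell death gene Bbc3 (-0.45, adjusted p = 0.00341) and Trib1 (-0.37, adjusted p = 0.00357), with Cdkn1a the sixth. Klf15 rose in HT lithium (0.29, adjusted p = 0.00145) and WT lithium (0.23, adjusted p = 0.0436), and Fbxo32, a ubiquitin ligase that FOXO factors raise in wasting muscle, fell in both (-0.33, adjusted p = 0.0028, and -0.36, adjusted p = 0.00545). Of the 7 kinases and phosphatases of pyruvate dehydrogenase, Pdp1 rose in HT lithium (0.27, adjusted p = 0.0039).

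**Figure D4:**
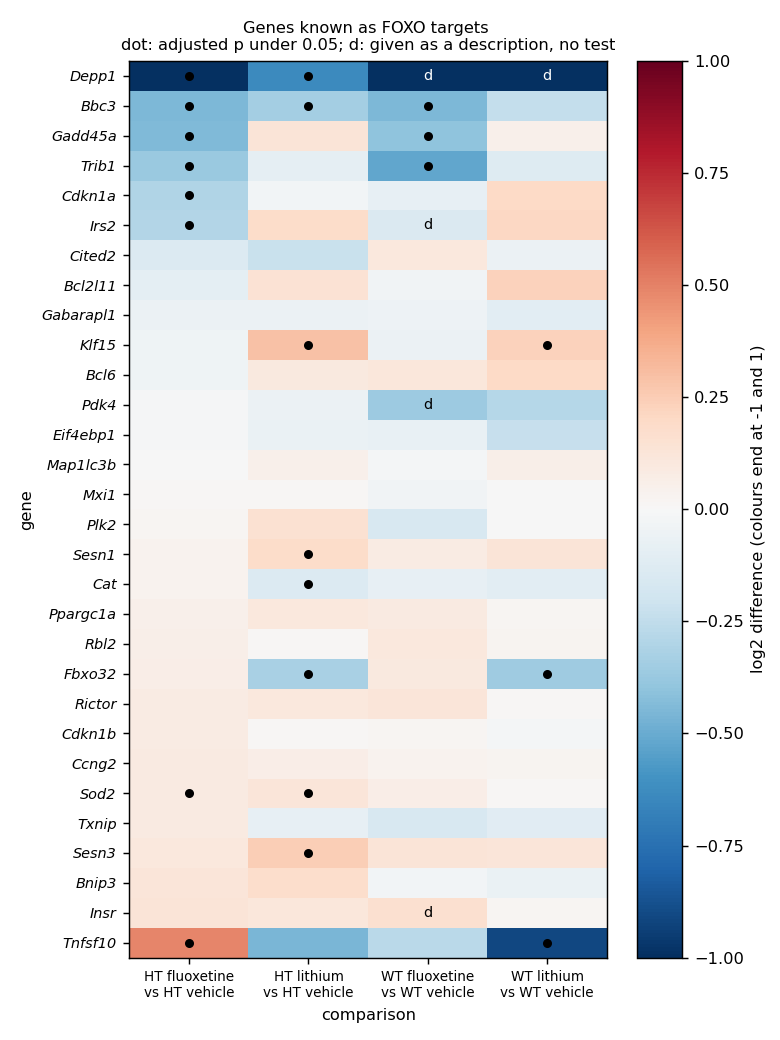
Log2 difference (colour) of 30 genes known as FOXO targets in HT fluoxetine, HT lithium, WT fluoxetine and WT lithium, each against its vehicle, ordered by the first column. Depp1 is the darkest blue row, Gadd45a, Bbc3 and Trib1 are blue in both fluoxetine columns, and Klf15 is red in both lithium columns.

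Ddit4, Pdk4 and Klf15 are also known to answer to glucocorticoids in some tissues. A list of 16 such genes, which holds all 3, was read beside them. It was chosen with earlier results of these data known. Beside it, 12.8% of all genes passed in HT fluoxetine, 14.1% in HT lithium and 3.34% in WT lithium. In HT fluoxetine 2 rose and 5 fell, led by Hif3a, a hypoxia-inducible factor subunit (1.07, adjusted p = 8.03e-06), and the clock gene Per1 (-0.52, adjusted p = 4.43e-05). In HT lithium 7 rose, led by Hif3a (1.49, adjusted p = 7.63e-10), Zbtb16 (0.82, adjusted p = 5.50e-06) and Tsc22d3, which encodes GILZ (0.52, adjusted p = 0.000218). In WT lithium 5 rose, among them Fkbp5, which encodes a co-chaperone that dampens the receptor (1.02, adjusted p = 1.98e-05).

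Across the 58 libraries, after the group means were subtracted, some members moved together. Pearson's r was 0.89 for Irs1 and Igf1 (Spearman's rho 0.82, and r 0.86 without the 2 libraries farthest out). It was 0.84 for Foxo1 and Igf1 (rho 0.84, 0.81) and 0.75 for Irs1 and Foxo1 (rho 0.70, 0.71). These 3 genes are those that rose most with the olfactory bulb level. For Igf1r and Insr r was 0.81 (rho 0.83, 0.82). Irs2 and Foxo3 had r of 0.53 (rho 0.54, 0.52), and Depp1 had 0.45 with Pdk4 (rho 0.42, 0.34) and 0.39 with Ddit4 (rho 0.40, 0.38). Other pairs lay as far from 0 as these last ones, so the members did not split into separate sets. Among them were Foxo3 with Igf1 (-0.55), Irs2 with Igf1 (-0.48) and Insr with Foxo1 (0.46). The points of such a correlation share library, depth and tissue makeup, and it is given as a description.

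**Figure D5:**
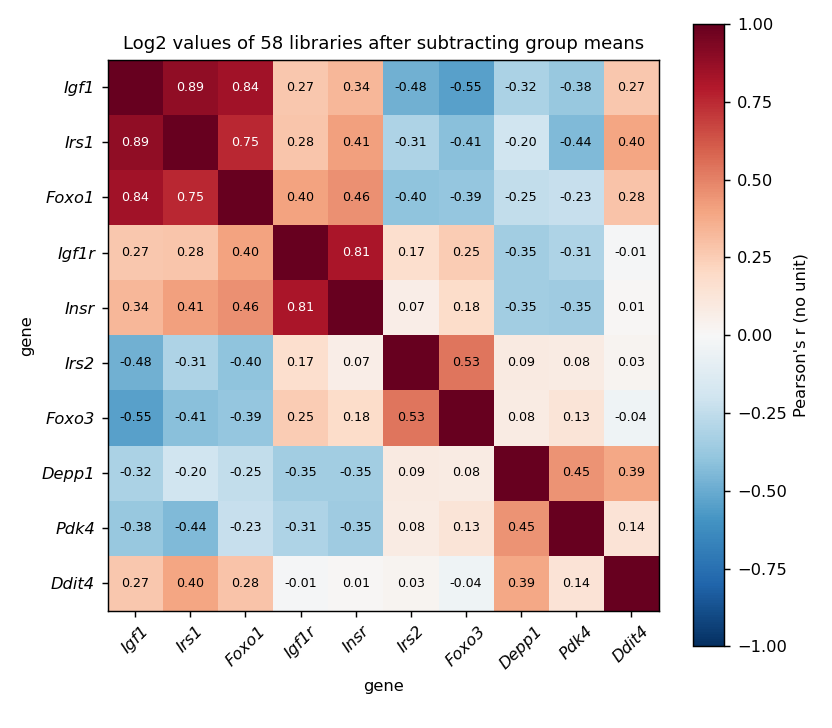
Pearson's r (colour and number) between the log2 values of each pair of members over 58 libraries, after subtracting the mean of each of the 12 groups. The block of Igf1, Irs1 and Foxo1 at the upper left holds r of 0.75 to 0.89, and Igf1r with Insr holds 0.81.

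Among 12525 genes with a mean of at least 100, those whose log2 values over the 58 libraries were most like Depp1's were Dyrk3 (r = 0.80), Klf10 (0.77), Phf13 (0.77), Rcor2 (0.76) and Fam78a (0.76), and the most opposite were Ccdc141 (-0.76), Tbc1d4 (-0.74) and Dnajc3 (-0.73). After subtracting group means Dyrk3 (0.62), Klhl21 (0.60) and Fam78a (0.57) led for Depp1. For Igf1r the nearest were Srgap2 (0.86), Ahnak (0.85), Fryl (0.85), Lyst (0.84) and Insr (0.84), and Eif5a (-0.79) was the most opposite. For Irs2 they were Jade2 (0.89), Cbfa2t3 (0.85), Ripor1 (0.83), Ahdc1 (0.83) and Fam53b (0.83), with Gtf2a1 (-0.72) the most opposite.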

How the data were processed

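The labels describe stranded, poly(A)-selected RNA libraries (TruSeq Stranded mRNA). Per the submitters' processing notes, Salmon 0.11.2, R 3.6.0, DESeq2 1.19.11 and GRCm38 were used, and the annotation release is not given in the sources used here. The authors deposited 1 table of normalised signal, 18088 Ensembl genes by 58 libraries, in which every value is a whole multiple of 1 step per library (tolerance 0.01), as counts divided by a size factor would be. Whole reads were recovered for 54 libraries, and for 4 the step (range 0.75 to 1.27) lay too close to 1 to decide. The plan allowed for raw counts, and the test for normalised values applied.

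Symbols and positions came from GENCODE for GRCm38, and 18077 IDs matched. limma 3.58.1 (R 4.3.3) was fitted to log2(value + 1), with a variance trend and 1 coefficient for each of 12 groups of genotype, treatment and sex, over all 58 libraries. Differences, which understate those of low genes on this scale, averaged both sexes, and p-values were adjusted (Benjamini-Hochberg) over the 16669 genes with a mean of at least 10. The fit was tested on simulated data. Recovered reads were tested with edgeR 4.0.16 and DESeq2 1.42.0 as alternatives. The members and lists were chosen with earlier results of these data known. The text names all members, in each pathway list no more than 4 genes per drug comparison, taken by p from those called there, while the genes most like Depp1, Igf1r and Irs2 were ranked by Pearson's r. Predicted genes were not named, and some genes that passed are not reported here. A gene is said to rise or fall where its adjusted p was under 0.05. The labels do not say whether replicate numbers pair the samples, and the main fit did not pair by them.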

Additional observations from a re-analysis of the deposited data

Results flagged for a closer look

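In 120 sets of 4 or 5 libraries of 1 genotype, treatment and sex (12 groups for each of 10 members), 8 held a library whose gap to its nearest neighbour was large against the range of the set (Dixon's test), and chance flags about 1 in 20. Igf1 stood at 954 normalised counts in WT fluoxetine female 3, against 412 to 554 in the other 4, and at 795 in WT lithium female 1, against 371 to 419. Foxo1 stood at 672 in the same WT lithium female 1, against 492 to 521. Foxo3 was low in WT fluoxetine female 3, at 2211 against 2573 to 2702. Irs1 stood at 786 in WT fluoxetine male 1 (others 508 to 588) and Irs2 at 1819 in WT fluoxetine female 5 (others 1135 to 1326). Insr stood at 1886 in HT lithium female 5 (others 1671 to 1732) and Pdk4 at 160 in HT fluoxetine female 3 (others 244 to 266).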

How the results depend on the processing

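Depth does not limit most members, but Depp1, at a mean of 43.7, drops out when a mean of at least 100 is asked. Of the called members' values under other settings, 1212 kept direction and call, 98 kept direction only, and none changed sign. Most of these settings left out 1 of the 58 libraries, many of them from outside the compared groups. The tally also holds values given above as a description, and nothing is read from their part of it. They are the members called in WT fluoxetine against WT vehicle, Depp1 in WT lithium against WT vehicle, and Igf1r in WT lithium against WT fluoxetine. The count of members called in HT fluoxetine against HT vehicle was 5, and 3 without the libraries that stand apart, 2 by limma on 54 libraries and 3 by edgeR. In WT fluoxetine against WT vehicle it was 5, and 3 once the exon length slope was a covariate. In HT lithium against HT vehicle it was 1, then 0 with quantile normalisation, no filter, no variance trend, the filter at 100, a pseudocount of 0.5, both covariates, limma on 54 libraries, edgeR or DESeq2, and 3 with the compared groups alone or the olfactory bulb level. In HT lithium against HT fluoxetine it was 3, then 5 with either covariate and 6 with both, and in WT lithium against WT fluoxetine it was 3, and 1 with the compared groups alone. The 3 in WT mice include Igf1r, which is given there as a description. In HT against WT under fluoxetine the count was 0, and 1 (Foxo1) with both covariates. The causes were not tested. Leaving out 1 library gave 3 to 6 in HT fluoxetine (3 without HT fluoxetine male 1 or HT vehicle male 5), 4 to 5 in WT fluoxetine, 0 to 2 in HT lithium, 1 to 2 in WT lithium, 2 to 5 between the drugs in HT (5 without HT lithium male 4), 1 to 4 between them in WT (1 without WT fluoxetine male 5, WT lithium female 3 or WT lithium female 4) and 0 to 0 elsewhere. The replicate number as a block gave 0 in HT lithium against HT vehicle in place of 1 and changed no other count by over 1.5 times. Across all genes, edgeR and DESeq2 on 54 libraries called 817 and 1003 genes in HT fluoxetine, against 2134 by limma on all 58. In HT lithium they called 1074 and 1257, against 2345. Left out of these count tests were male 3 of the HT lithium group and, among HT vehicle mice, female 2 with males 1 and 5. No WT library was left out. In WT fluoxetine edgeR and DESeq2 called 1114 and 1306 genes, against 1232 by limma, and in WT lithium 533 and 660, against 556. The part of the missing libraries in the lower HT counts was not tested. Between same-numbered libraries r lay from -0.284 to 0.367. Differently numbered libraries were not set beside them, so these values cannot decide whether the numbers pair the samples. Both covariates together, limma on 54 libraries and leaving out the libraries that stand apart were chosen after seeing the data.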
